A study of Mus musculus with 16 samples.

Results

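The whey and other late milk proteins examined here are the products of 5 genes, Wap, Lalba, Glycam1, Spp1 and Cel. They were found by symbol in the table of gene expression, where each had 1 row, and are 5 of its 24187 rows. They were selected on their FPKM (reads per kilobase of gene, scaled to library size) in the comparison of the 2 groups of glands, so those levels are given as a description, without a test. All 5 were among the 13392 genes that averaged 1 FPKM or more over the libraries.

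The RNA came from mouse mammary glands at day 13 of pregnancy. The mutant group was Socs2-Δs, a line edited with CRISPR/Cas9 (3 libraries, Mut in the labels), and the control group was wild-type C57BL/6 (WT, 4 libraries). The controls were bought from Charles River, so genotype and source of the mice cannot be told apart. The strain tag reads C57BL/6 in both groups, and the labels give neither the ages of the mice, nor the extent of the edit, nor whether each library was a separate animal. For the 3 Socs2-Δs libraries the genotype tag says wild type against their titles, and grouping went by title.

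Milk proteins fall into the caseins, which form micelles, and the whey proteins, which stay in solution. During pregnancy, prolactin acts on the alveolar epithelium through its receptor, the kinase JAK2 and the transcription factor STAT5, together with glucocorticoid receptor and with epithelial factors such as ELF5. The casein genes respond early in this process, whereas Wap and Lalba are known in the mouse as genes of later alveolar differentiation. SOCS proteins, Socs2 among them, are induced by cytokines and restrain JAK-STAT signalling.

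A pair of control libraries, wild-type replicates 3 and 4, lay far from the remaining 5. On the first principal component of log2(FPKM + 1), which held 61.6% of the variance, the 3 Socs2-Δs libraries lay between -37.7 and -29.6 and wild-type replicates 1 and 2 at -15.8 and -18.2, whereas wild-type replicates 3 and 4 lay at 57.1 and 77.9. Differences of the 5 genes and of the lists are therefore given with all 4 wild-type libraries and with wild-type replicates 1 and 2 alone. Markers of luminal epithelium (12 genes, all present) summed to 1543 to 2314 FPKM in Socs2-Δs glands and 839.3 to 1910 FPKM in wild-type glands. Both groups thus held epithelium, and the sum alone does not tell mammary epithelium from that of other organs. Socs2 itself (Entrez 216233) measured 13.9 to 17.1 FPKM in Socs2-Δs glands and 16.1 to 25.6 FPKM in wild-type glands. The groups overlapped through wild-type replicate 4 alone, at 16.1 FPKM. Wild-type replicates 1 to 3 measured 25.6, 22.1 and 24.8 FPKM. Depth could be read from the steps between values: each FPKM of the 5 genes was a whole number of reads within 0.02.

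The sequences just upstream of the 5 genes are shown because the genes were high in the same libraries and because STAT5 is named in the title of the series. Each is the 250 bases before an annotated transcription start, 5′ to 3′ on the strand of the gene, from RefSeq on build GRCm38.p6, where all 5 genes were found. The windows are chr11:6638650-6638899 on the minus strand for Wap, chr15:98482684-98482933 (minus) for Lalba, chr15:103565082-103565331 (minus) for Glycam1, chr5:104434861-104435110 (plus) for Spp1 and chr2:28563404-28563653 (minus) for Cel. Capitals mark matches to TTCNNNGAA, the palindrome bound by STAT5, and to AGGAAG or its complement CTTCCT, a form of the core bound by ETS factors such as ELF5.
Wap: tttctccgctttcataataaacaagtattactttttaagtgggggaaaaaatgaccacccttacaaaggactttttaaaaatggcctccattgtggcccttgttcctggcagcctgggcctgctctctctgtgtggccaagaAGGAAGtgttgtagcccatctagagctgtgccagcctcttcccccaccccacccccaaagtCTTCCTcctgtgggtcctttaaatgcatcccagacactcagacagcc
Lalba: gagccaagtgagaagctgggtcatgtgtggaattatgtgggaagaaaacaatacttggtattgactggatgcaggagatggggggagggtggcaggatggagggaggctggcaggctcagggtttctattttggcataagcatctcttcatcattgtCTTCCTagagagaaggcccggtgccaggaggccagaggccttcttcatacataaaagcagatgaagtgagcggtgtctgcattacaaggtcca
Glycam1: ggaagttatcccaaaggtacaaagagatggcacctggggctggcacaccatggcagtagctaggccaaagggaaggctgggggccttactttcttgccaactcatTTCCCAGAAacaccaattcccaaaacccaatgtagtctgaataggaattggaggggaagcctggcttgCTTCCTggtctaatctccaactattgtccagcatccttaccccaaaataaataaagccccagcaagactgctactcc
Spp1: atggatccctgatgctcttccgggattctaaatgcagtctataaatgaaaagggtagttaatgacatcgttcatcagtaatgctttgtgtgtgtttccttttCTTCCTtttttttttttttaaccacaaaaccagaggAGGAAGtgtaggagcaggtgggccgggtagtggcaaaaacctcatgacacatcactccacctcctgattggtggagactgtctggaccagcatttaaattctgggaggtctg
Cel: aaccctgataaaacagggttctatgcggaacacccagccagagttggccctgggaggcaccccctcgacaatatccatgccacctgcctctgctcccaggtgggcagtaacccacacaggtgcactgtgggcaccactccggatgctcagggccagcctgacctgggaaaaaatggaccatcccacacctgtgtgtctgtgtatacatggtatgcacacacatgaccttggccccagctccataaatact

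Of these windows, the one of Glycam1 held a TTCNNNGAA match, TTCCCAGAA at positions -145 to -137 counted from the transcription start. Of all 32851 promoter windows of this length, 7.02% held that motif. The same palindrome with a spacer of 4 bases instead of 3 and the glucocorticoid receptor hexamer TGTTCT were searched on both strands too and were in none of the 5 windows, against 5.85% and 16.1% of all windows. The ETS core was in 4 of the 5, with 2 copies in Wap (-108 to -103 and -47 to -42), 2 in Spp1 (-148 to -143 and -112 to -107), and 1 in Lalba (-93 to -88) and in Glycam1 (-77 to -72). A second annotated start of Spp1 has a window of its own, chr5:104435942-104436191 (plus), which is not printed; of the motifs searched it held 1 ETS core, at -161 to -156. The ETS core was searched after the windows had been read, and 29.5% of all windows held it. No searched motif overlapped another in these windows, and none was in the window of Cel. A match describes the letters of the window and not a site of binding.

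**Figure D1:**
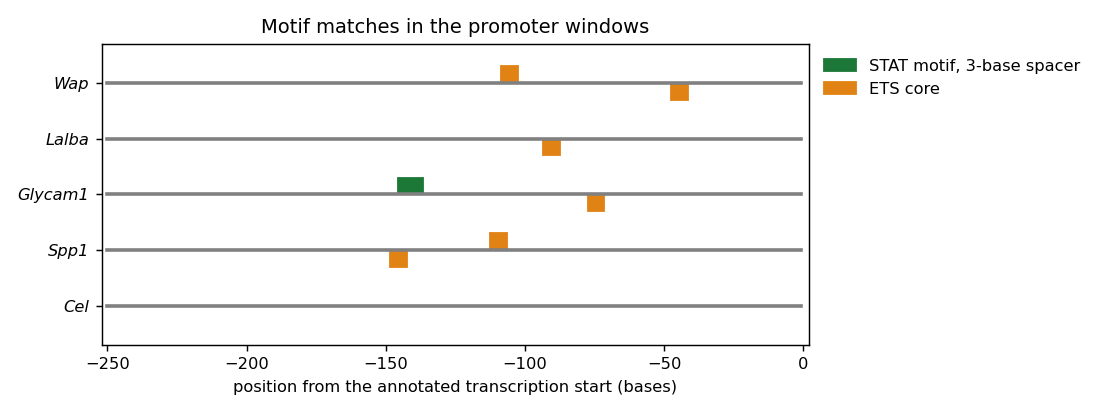
Positions of motif matches in the 250 bases before the annotated transcription start of each gene (the first of 2 for Spp1), with the start at 0 on the right (horizontal axis, bases). Marks above a line are on the strand of the gene and marks below it on the other strand. The green mark in Glycam1 is TTCNNNGAA, the orange marks are the ETS core, and Cel has no mark.

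All 5 genes were higher in Socs2-Δs glands, and for each of them the lowest Socs2-Δs library lay above the highest wild-type library. Wap differed most, by 5.55 on the log2(FPKM + 1) scale, followed by Glycam1, Spp1, Lalba and Cel. Among the 13392 genes, ordered by this difference, Wap was at place 1, Glycam1 at 3, Spp1 at 4, Lalba at 9 and Cel at 20. Groups without overlap and with Socs2-Δs higher were found for 12.5% of the tested genes, and against wild-type replicates 1 and 2 alone for 21.8%. Since the genes were selected on this contrast, nothing is read from their count of 5 of 5 in both. In whole gland RNA, more cells of a type and more RNA per cell cannot be told apart.

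**Figure D2:**
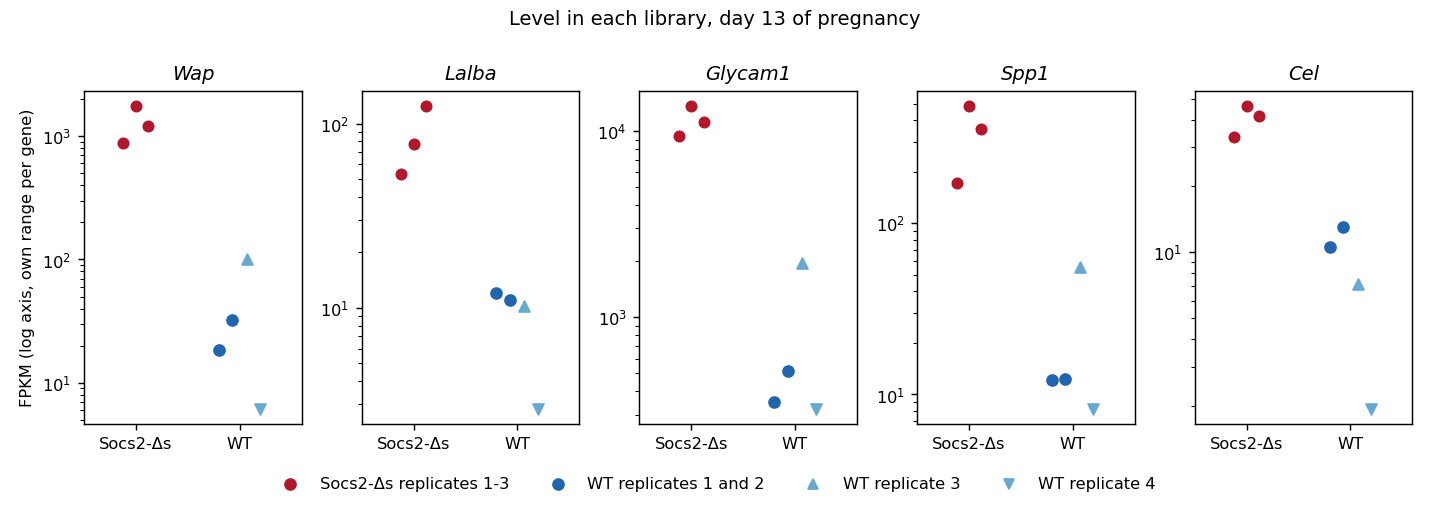
Level of each gene in FPKM (vertical log axis, own range per gene) in the 3 Socs2-Δs libraries (red, left) and the 4 wild-type libraries (blue, right), 1 point a library. Wild-type replicates 3 and 4 have symbols of their own; in each panel the red points lie above all blue points, and wild-type replicate 4 is the lowest.

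Wap (Entrez 22373) encodes whey acidic protein, a major whey protein of rodent milk built of 4-disulfide core domains. It measured 876, 1744 and 1201 FPKM in Socs2-Δs replicates 1 to 3, against 18.5, 32.1, 100.1 and 6.11 FPKM in wild-type replicates 1 to 4. The Socs2-Δs libraries lay within 1.99-fold of each other, whereas the wild-type libraries spanned 16.4-fold, with replicate 3 highest and replicate 4 lowest. The means were 1274 ± 439 FPKM in Socs2-Δs glands and 39.2 ± 42.0 FPKM in wild-type glands (SD, n = 3 and 4), and the log2 difference was 5.55 (limma SE 0.79). Against wild-type replicates 1 and 2 alone it was 5.59 (SE 0.36), so the difference was as large without the pair that lay apart. In reads, Wap had 11535 to 22786 in Socs2-Δs libraries and 70 to 1198 in wild-type libraries. Its place among all genes by FPKM was 23 to 78 in Socs2-Δs glands and 905 to 8151 in wild-type glands.

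Lalba (Entrez 16770) encodes alpha-lactalbumin, the whey protein that binds the galactosyltransferase encoded by B4galt1 and turns it into lactose synthase. It measured 53.1, 77.8 and 124.1 FPKM in Socs2-Δs replicates 1 to 3, against 11.99, 11.1, 10.2 and 2.81 FPKM in wild-type replicates 1 to 4. Wild-type replicates 1 to 3 were close together and replicate 4 was low, so here replicate 3 did not lie high as it did for Wap. The lowest Socs2-Δs library was 4.43-fold above the highest wild-type library. The means were 85.0 ± 36.02 FPKM in Socs2-Δs glands and 9.01 ± 4.20 FPKM in wild-type glands (SD, n = 3 and 4). The log2 difference was 3.17 (SE 0.47), and 2.70 (SE 0.34) against wild-type replicates 1 and 2. The lowest value rests on 42 reads, with an exact Poisson 95% interval of 30.3 to 56.8 reads that covers counting error only.

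Glycam1 (Entrez 14663) encodes a secreted mucin-like glycoprotein that is found in milk and is also made by the high endothelial venules of lymph nodes, where it carries sugars bound by L-selectin. It measured 9396, 13587 and 11156 FPKM in Socs2-Δs replicates 1 to 3, against 352.1, 513.2, 1955 and 321.0 FPKM in wild-type replicates 1 to 4. It was the gene of place 4 by FPKM in each of the 3 Socs2-Δs libraries and of place 82 to 274 in the wild-type libraries. Wild-type replicate 3 lay well above the other 3 wild-type libraries, and the Socs2-Δs libraries lay within 1.45-fold of each other. The means were 11379 ± 2104 FPKM in Socs2-Δs glands and 785.3 ± 784.3 FPKM in wild-type glands (SD, n = 3 and 4). The log2 difference was 4.27 (SE 0.64), and 4.72 (SE 0.38) against wild-type replicates 1 and 2.

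Spp1 (Entrez 20750) encodes osteopontin, a secreted phosphoprotein bound by integrins and CD44 that is present in milk, in bone matrix and in activated macrophages. It measured 172.3, 483.5 and 356.7 FPKM in Socs2-Δs replicates 1 to 3, against 12.1, 12.3, 55.4 and 8.19 FPKM in wild-type replicates 1 to 4. Wild-type replicate 3 again lay above the other wild-type libraries, and Socs2-Δs replicate 1 was lower than the other 2 of its group. The means were 337.5 ± 156.5 FPKM in Socs2-Δs glands and 21.999 ± 22.3 FPKM in wild-type glands (SD, n = 3 and 4). The log2 difference was 4.16 (SE 0.63), and 4.56 (SE 0.42) against wild-type replicates 1 and 2. The lowest Socs2-Δs library exceeded the highest wild-type library 3.11-fold, and exceeded the higher of wild-type replicates 1 and 2 by 14.0-fold.

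Cel (Entrez 12613) encodes carboxyl ester lipase, the bile salt-stimulated lipase that the pancreas secretes into the gut and the lactating mammary gland into milk. It measured 33.3, 46.1 and 41.7 FPKM in Socs2-Δs replicates 1 to 3, against 10.5, 13.0, 7.17 and 1.92 FPKM in wild-type replicates 1 to 4. It had the smallest difference of the 5, and wild-type replicates 3 and 4 were both below replicates 1 and 2. The means were 40.4 ± 6.48 FPKM in Socs2-Δs glands and 8.15 ± 4.79 FPKM in wild-type glands (SD, n = 3 and 4). The log2 difference was 2.38 (SE 0.50), and 1.69 (SE 0.17) against wild-type replicates 1 and 2, where the ratio of mean FPKM was 3.43 instead of 4.95.

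FPKM is per length, so levels can be set side by side between genes. In Socs2-Δs glands the order was Glycam1, Wap, Spp1, Lalba and Cel in each library, and the ranges of neighbours in this order did not overlap. In wild-type glands only Glycam1 lay apart, and the ranges of the other 4 overlapped: Wap came next after Glycam1 in wild-type replicates 1 to 3, and Spp1 did so in replicate 4. Together the 5 genes made up 2.16%, 2.89% and 2.08% of the summed FPKM of Socs2-Δs replicates 1 to 3, against 0.0962%, 0.118%, 0.276% and 0.0535% in wild-type replicates 1 to 4. Most of that was Glycam1, and without it the share was 0.233 to 0.427% in Socs2-Δs glands and 0.00299 to 0.0224% in wild-type glands.

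Within the groups the libraries fell into a recurring order. Socs2-Δs replicate 1 was the lowest of its group for all 5 genes, and Socs2-Δs replicate 2 the highest for Wap, Glycam1, Spp1 and Cel, with replicate 3 highest for Lalba. Wild-type replicate 4 was the lowest for all 5. Wild-type replicate 3 was the highest of its group for Wap, Glycam1 and Spp1, while replicate 1 was highest for Lalba and replicate 2 for Cel. The ratio of wild-type replicate 3 to replicate 4 was 16.4 for Wap, 6.76 for Spp1, 6.09 for Glycam1, 3.72 for Cel and 3.63 for Lalba.

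The caseins were higher in Socs2-Δs glands as well, so the levels were set against beta-casein (Csn2) in the same library. Csn2, the most abundant casein, measured 31556, 39445 and 44988 FPKM in Socs2-Δs replicates 1 to 3, against 5663, 9011, 20118 and 1940 FPKM in wild-type replicates 1 to 4. Wap came to 2.78%, 4.42% and 2.67% of Csn2 in Socs2-Δs replicates 1 to 3, against 0.327%, 0.357%, 0.498% and 0.315% in wild-type replicates 1 to 4. The share of Wap thus spanned 1.58-fold over the same 4 wild-type libraries in which its FPKM spanned 16.4-fold, and it was 8.80-fold larger on average in Socs2-Δs glands (9.63-fold against wild-type replicates 1 and 2). Glycam1 came to 29.8%, 34.4% and 24.8% of Csn2 in Socs2-Δs glands, against 6.22%, 5.70%, 9.72% and 16.5% in wild-type glands. Spp1 came to 0.546%, 1.23% and 0.793% in Socs2-Δs glands, against 0.214%, 0.136%, 0.275% and 0.422% in wild-type glands. For both, the groups did not overlap, and the mean share was 3.11-fold larger for Glycam1 and 3.26-fold larger for Spp1 in Socs2-Δs glands. Against wild-type replicates 1 and 2 these ratios were 4.98 for Glycam1 and 4.88 for Spp1. Set against Csn1s2a, another casein, the groups overlapped for both genes, through wild-type replicate 4 alone. That library held 321.0 FPKM of Glycam1 and 8.19 FPKM of Spp1 beside 636.8 FPKM of Csn1s2a. Glycam1 came to a smaller share of Csn1s2a than there in Socs2-Δs replicates 1 and 3 (9396 beside 21716.8 and 11156 beside 32119.5 FPKM). Spp1 did so in Socs2-Δs replicates 1 and 3 too (172.3 beside 21716.8 and 356.7 beside 32119.5 FPKM).

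Lalba and Cel did not exceed Csn2 in this way. Lalba came to 0.168%, 0.197% and 0.276% of Csn2 in Socs2-Δs glands, against 0.212%, 0.123%, 0.0506% and 0.145% in wild-type glands. Cel came to 0.106%, 0.117% and 0.0928% of Csn2 in Socs2-Δs glands, against 0.186%, 0.144%, 0.0356% and 0.0992% in wild-type glands. The groups overlapped for both genes, and the ratio of mean shares, Socs2-Δs over wild type, was 1.61 for Lalba and 0.904 for Cel. Against wild-type replicates 1 and 2 alone these ratios were 1.28 and 0.637, and the 3 Cel shares of Socs2-Δs glands lay below both wild-type shares.

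**Figure D3:**
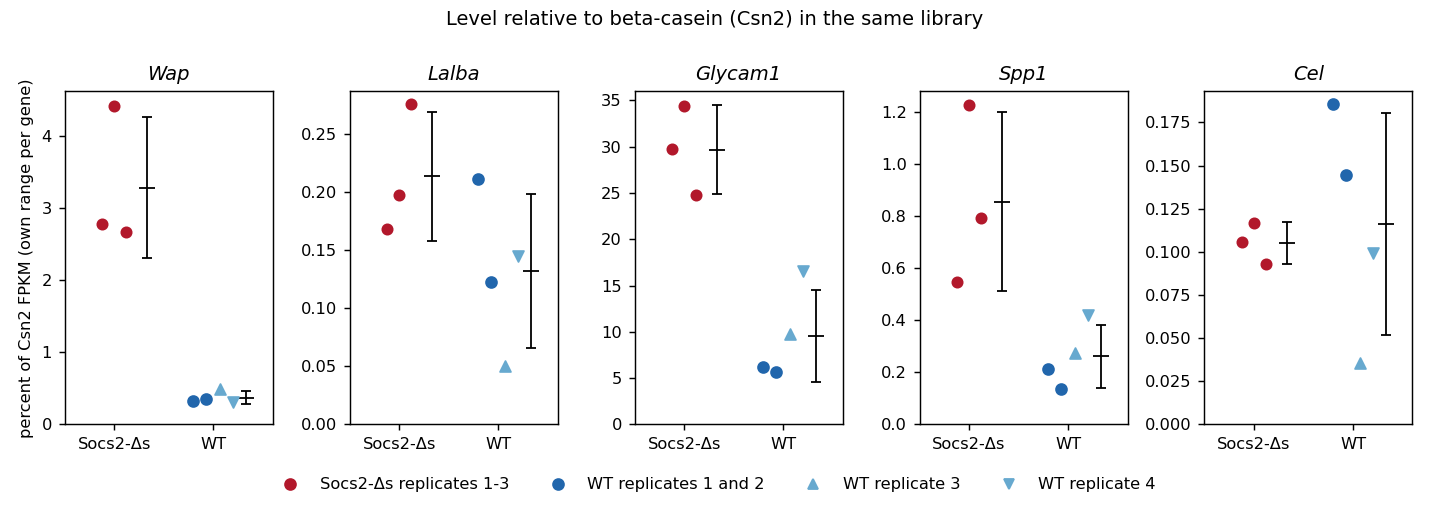
Level of each gene as a percent of the Csn2 FPKM of the same library (vertical axis from 0, own range per gene), Socs2-Δs libraries in red on the left and wild-type libraries in blue on the right, with the mean and SD beside each group (n = 3 and 4). The groups lie apart for Wap, Glycam1 and Spp1 and overlap for Lalba and Cel.

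Over all genes, limma called 6 of 13392 genes higher in Socs2-Δs glands with 4 wild-type libraries (0.0448%) and 0 lower (0%) at a Benjamini-Hochberg adjusted p under 0.05, with 1222 higher (9.12%) and 1202 lower (8.98%) at an unadjusted p under 0.05. None of the 5 genes was among the 6, and all 5 were among the 1222. With wild-type replicates 1 and 2 alone, 169 genes were called higher (1.26%) and 91 lower (0.68%), and the 5 genes were all among the 169; at an unadjusted p under 0.05 the higher genes were 9.35% of all. These calls use the contrast on which the genes were selected, and nothing is read from them. The calls of the second fit rest on few libraries: without Socs2-Δs replicate 1, 2 or 3 it called 1, 6 and 36 genes higher, and without wild-type replicate 1 or 2 it called 1 and 0. The median log2 difference of the 5 genes was 4.16 against 4 wild-type libraries and 4.56 against wild-type replicates 1 and 2, beside -0.0044 and 0.031 over all tested genes.

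The genes around each of the 5 proteins, its relatives, partners and receptors, were followed as lists, which were written with earlier results of these data known. With 4 wild-type libraries limma called 0 genes of any list, so the calls given here are those against wild-type replicates 1 and 2. They took in 12 rises and 2 falls, cell type markers aside. Of all tested genes, 1.26% were called higher and 0.68% lower in that fit. As the lists were written with results known, nothing is read from these counts. Without Socs2-Δs replicate 3, Lipa, Xdh, Chrdl2 and Pigr were still called, and without any other single library of that fit none of the 14 was.

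The 5 caseins carry most of the protein of mouse milk. Of them Csn3, the kappa-casein that stabilises the micelle, and Csn1s2b rose, with log2 differences of 2.21 (adjusted p = 0.0331) and 1.67 (adjusted p = 0.0311, limma). The median of the 5 was 2.48 with 4 wild-type libraries and 2.42 with wild-type replicates 1 and 2. All 5 were higher at an unadjusted p under 0.05 in both fits (limma), as were 9.12% and 9.35% of all tested genes. The groups did not overlap for any of the 5, beside 12.5% of all tested genes without overlap and with Socs2-Δs higher. The sources do not say how reads shared by similar casein genes were counted.

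The list of milk fat globule and other milk proteins held 13 genes, and 6 of them rose, beside 1.26% of all tested genes. Fabp3, Lao1 and Chrdl2 were put on this list with their rise in these data known. Nothing is therefore read from the count or the median of this list. Fabp3, a fatty acid-binding protein of the lactating gland, averaged 1324 ± 262 FPKM in Socs2-Δs glands and 69.6 ± 53.1 FPKM in wild-type glands, a log2 difference of 4.77 with 4 wild-type libraries and 4.26 with replicates 1 and 2 (adjusted p = 0.0205). Lao1, an L-amino acid oxidase of milk, averaged 53.6 ± 16.2 FPKM in Socs2-Δs glands and 3.63 ± 2.65 FPKM in wild-type glands (log2 difference 2.997 with replicates 1 and 2, adjusted p = 0.0233). Xdh and Btn1a1, the xanthine oxidoreductase and butyrophilin of the fat globule envelope, rose by 1.57 and 1.57 (adjusted p = 0.0204 and 0.0233, limma). The remaining rises were those of Chrdl2, a chordin-like secreted protein, and Pigr, the receptor that carries immunoglobulins across the epithelium (2.75 and 2.43, adjusted p = 0.0234 and 0.0494). The median of the list was 1.83 with 4 wild-type libraries and 1.57 with replicates 1 and 2. Trf, the transferrin of milk, averaged 4334 ± 673 FPKM in Socs2-Δs glands and 1055 ± 350 FPKM in wild-type glands but did not pass (adjusted p = 0.0557).

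The lactose synthesis partners of Lalba had smaller differences. Of 9 genes, B4galt1, the galactosyltransferase that alpha-lactalbumin binds, rose: it averaged 141.4 ± 33.1 FPKM in Socs2-Δs glands and 43.7 ± 11.004 FPKM in wild-type glands (log2 difference 1.72 with replicates 1 and 2, limma adjusted p = 0.0374). The other 8, which include the UDP-galactose transporter Slc35a2, the glucose transporter Slc2a1 and the hexokinases, were not called. Slc2a1 averaged 17.8 ± 0.748 FPKM in Socs2-Δs glands and 11.95 ± 0.618 FPKM in wild-type glands (adjusted p = 0.0706). The median of the 9 was 0.35 with 4 wild-type libraries and 0.22 with replicates 1 and 2.

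The relatives of Wap had smaller differences, in both directions. Of the 16 symbols listed for its family, 15 were found and 8 passed the filter on low values, with a median of -0.21 with 4 wild-type libraries and -0.14 with replicates 1 and 2. The list also held Spint1 and Spint4, Kunitz inhibitors without the 4-disulfide core, and an older symbol of Eppin. Without the Kunitz pair, a choice made after seeing the data, 7 tested genes remained, and their medians were -0.68 and -0.50. Wfdc12 fell: it averaged 119.5 ± 18.1 FPKM in Socs2-Δs glands and 245.3 ± 90.8 FPKM in wild-type glands (log2 difference -1.31 with replicates 1 and 2, limma adjusted p = 0.0400). With 4 wild-type libraries its difference was -0.94 (limma adjusted p = 0.252). The groups overlapped, as wild-type replicate 4 was at 112.8 FPKM. Wfdc18, the most abundant of them, averaged 6119 ± 2285 FPKM in Socs2-Δs glands and 3470 ± 2803 FPKM in wild-type glands, with overlap (adjusted p = 0.185). Wfdc2 and Wfdc17 had means of 2.74 and 10.2 FPKM in Socs2-Δs glands and 7.43 and 38.7 FPKM in wild-type glands, and neither was called.

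The lists around Glycam1, Spp1 and Cel had medians near or below 0. Of 10 sialomucins and makers of L-selectin ligands, 8 were tested and Fut4, a fucosyltransferase, rose (log2 difference 1.31 with replicates 1 and 2, limma adjusted p = 0.0386), while the median was -0.12 in both fits; relative to the FPKM without caseins and the 5 genes it was 0.078 with 4 wild-type libraries. The 8 osteopontin receptors, among them Itgav, Itgb3 and Cd44, had 0 calls and a median of -0.24 with 4 wild-type libraries and -0.25 with replicates 1 and 2. They had 1 lower gene at an unadjusted p under 0.05 in each fit (limma), beside 8.98% and 10.8% of all tested genes. The 4 other genes of the phosphoprotein family of Spp1 (Ibsp, Dmp1, Dspp and Mepe) averaged 0.0792 FPKM or less in both groups. Of 12 lipases other than Cel, 6 were tested: Lipa, the lysosomal acid lipase, rose and Ces1d, a carboxylesterase of adipose tissue, fell (1.30 and -1.11, adjusted p = 0.0194 and 0.0233, limma). The lipase median was -0.62 with 4 wild-type libraries and -0.80 with replicates 1 and 2, and the adipose enzymes Lpl and Lipe averaged 355.2 and 79.1 FPKM in Socs2-Δs glands and 877.2 and 149.9 FPKM in wild-type glands. Markers of adipocytes (10 genes) summed to 3455 to 6651 FPKM in Socs2-Δs glands and 10532 to 22975 FPKM in wild-type glands, and their part in these values was not tested. Of these markers Cidec and Pparg, of the lipid droplet and of adipocyte differentiation, fell (log2 differences -1.73 and -0.85 with replicates 1 and 2, limma adjusted p = 0.0311 and 0.0406).

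Of 12 regulators of alveolar differentiation, 11 were tested and Stat5a rose. It averaged 99.2 ± 8.92 FPKM in Socs2-Δs glands and 38.7 ± 15.4 FPKM in wild-type glands (log2 difference 0.93 with replicates 1 and 2, limma adjusted p = 0.0396). Stat5b averaged 40.7 ± 5.19 FPKM in Socs2-Δs glands and 22.6 ± 4.20 FPKM in wild-type glands, and Elf5 359.7 ± 86.1 FPKM in Socs2-Δs glands and 168.3 ± 106.1 FPKM in wild-type glands, and neither was called (adjusted p = 0.0832 and 0.0749). The prolactin receptor gene Prlr averaged 4.07 ± 0.691 FPKM in Socs2-Δs glands and 4.39 ± 1.01 FPKM in wild-type glands. The median of the list was 0.26 with 4 wild-type libraries and 0.32 with replicates 1 and 2.

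**Figure D4:**
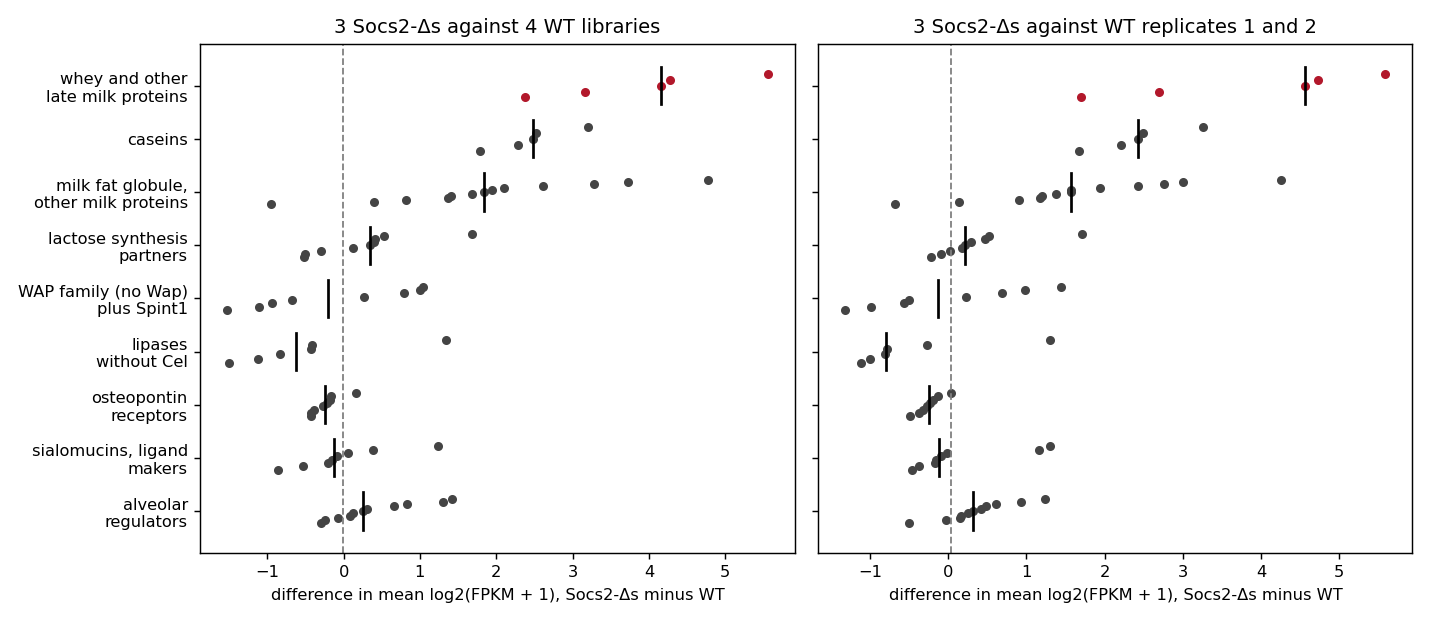
Difference in mean log2(FPKM + 1), Socs2-Δs minus wild type, for each tested gene of 9 lists (1 point a gene, vertical bar the list's median, dashed line the median of all tested genes), with 4 wild-type libraries on the left and wild-type replicates 1 and 2 on the right. The 5 genes (red) have medians of 4.16 and 4.56, the caseins 2.48 and 2.42, and the lists of relatives and receptors lie around or below 0.

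Other cell types are known to make several of these proteins, so their markers were read in the same libraries. Lymph node markers (14 genes, of which Ccl21a was listed at 0 throughout) summed to 13.0, 271.6 and 16.6 FPKM in Socs2-Δs replicates 1 to 3, against 15.7, 25.1, 22.2 and 386.8 FPKM in wild-type replicates 1 to 4. They were thus high in Socs2-Δs replicate 2 and wild-type replicate 4, the libraries with the highest and the lowest Glycam1 level. Chst4 and Fut7, which high endothelial cells use to decorate Glycam1, were at 2.14 FPKM or lower in every library. Both were highest in wild-type replicate 4 (1.57 and 2.14 FPKM) and next highest in Socs2-Δs replicate 2 (0.602 and 0.959 FPKM). Madcam1, of the same marker list, did not follow the sum. It was lowest in wild-type replicate 4, at 1.07 FPKM, and 4.92 to 8.03 FPKM in the other libraries. The part of lymph node cells in the Glycam1 level was not tested. Macrophage markers (12 genes) summed to 684.5 to 930.9 FPKM in Socs2-Δs glands and 950.0 to 1794 FPKM in wild-type glands, and osteoclast markers (6 genes, Calcr at or near 0) to 102.8 to 107.5 FPKM in Socs2-Δs glands and 138.4 to 253.6 FPKM in wild-type glands. Of the macrophage markers, 9 of 12 were lower in Socs2-Δs glands without overlap, as were 10% of all tested genes, and Cd14, Mertk and Lyz2 overlapped. The osteoclast sum was mostly Acp5 and Ctsk, and without them it was 3.19 to 7.06 FPKM in Socs2-Δs glands and 3.27 to 6.97 FPKM in wild-type glands. The part of these cells in the Spp1 level was not tested. Pancreatic acinar markers (14 genes) summed to 6.83 to 18.6 FPKM in Socs2-Δs glands and 6.23 to 33.5 FPKM in wild-type glands. Of these, Pnlip, Clps and Ctrb1 were listed at 0 in all libraries and 10 of the 14 were below 1 FPKM in all.

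Relative to the mean log2 level of the luminal markers, the members' median difference was 3.60 with 4 wild-type libraries and 4.17 with wild-type replicates 1 and 2. The luminal list itself had a median of 0.50 with 4 wild-type libraries and 0.39 with replicates 1 and 2, with 0 of 12 called and 3 and 4 higher at an unadjusted p under 0.05 (limma). Of all tested genes, 9.12% and 9.35% were higher at that threshold in the same fits. Liver and salivary markers were highest in the pair that lay apart. Liver markers (12 genes) summed to 98.3 to 254.3 FPKM in Socs2-Δs glands and 437.7 to 3127 FPKM in wild-type glands, highest in replicate 4. Most of the sum outside that pair was Cyp2e1 and Hp, and without them it was 8.95 to 17.8 FPKM in Socs2-Δs glands and 10.6, 9.54, 225.6 and 2161 FPKM in wild-type replicates 1 to 4. Salivary gland markers (11 genes) summed to 46.2 to 50.7 FPKM in Socs2-Δs glands and 82.0 to 452.5 FPKM in wild-type glands, highest in replicate 3. Without Amy1 and Aqp5 it was 0.984 to 2.01 FPKM in Socs2-Δs glands and 2.99, 0.755, 329.3 and 94.1 FPKM in wild-type replicates 1 to 4. Amy1, an amylase gene, fell (log2 difference -1.15 with replicates 1 and 2, limma adjusted p = 0.0406). The calls of Amy1, Cidec and Pparg were each lost when any single library of that fit was left out (adjusted p = 0.0654 to 0.269). The part of these tissues in the spread of the wild-type values was not tested.

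The 5 genes split by the shape of their profile over the 7 libraries. Likeness was measured as the root mean square distance between log2(FPKM + 1) profiles, each centred on its own mean, which is a description and says nothing of shared control. The profiles were not scaled. The distance therefore takes in the size of the difference between the groups, on which the 5 genes were selected. Glycam1 and Spp1 were closest to each other, at 0.31, and of all genes each was the nearest to the other. Wap was nearest to Fabp3 (0.59), then Glycam1 (0.79) and Spp1 (0.85). Lalba was nearest to Chrdl2 (0.19), Rgs16 (0.38) and Lao1 (0.43), and Cel followed at 0.51. Cel was nearest to Slc28a3 (0.20), a nucleoside transporter, Fam20a (0.21) and Vstm5 (0.33), and Btn1a1 followed at 0.36. Rgs8 and the casein gene Csn1s2a were each among the 5 nearest genes of Wap, Glycam1 and Spp1. Csn1s2a lay at 1.20 from Wap, 0.80 from Glycam1 and 0.82 from Spp1. The most distant pair of the 5 members was Wap and Cel, at 1.79.

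The genes next to the 5 on the chromosomes had smaller differences. The 2 nearest genes on each side made 19 entries in the reference gene order, of which 18 were found and 9 were tested. None was called in either fit with limma, and 3 with 4 wild-type libraries and 2 with replicates 1 and 2 had an unadjusted p under 0.05. At that threshold 9.12% of all tested genes were higher and 8.98% lower with 4 wild-type libraries. With replicates 1 and 2 the shares were 9.35% and 10.8%. Nothing is read from the counts of neighbours. Tbrg4 and Ramp3, beside Wap, had log2 differences of 0.73 and 0.088 with 4 wild-type libraries, and of 0.25 and 0.27 with replicates 1 and 2. Ppp1r1a, next to Glycam1, averaged 9.74 FPKM in Socs2-Δs glands and 27.3 FPKM in wild-type glands, with log2 differences of -1.35 with 4 wild-type libraries and -0.93 with replicates 1 and 2. Ibsp and Mepe, which lie beside Spp1 and belong to its family, were at or near 0, and Ralgds, next to Cel, averaged 50.1 FPKM in Socs2-Δs glands and 28.4 FPKM in wild-type glands (log2 differences 0.85 and 0.45). Kansl2, next to Lalba, averaged 23.2 FPKM in Socs2-Δs glands and 18.2 FPKM in wild-type glands (0.34 and 0.23).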

How the data were processed

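RNA of whole mammary gland was sequenced in 7 of the 16 samples of the series, and the 9 samples of other assays were not analysed here. TruSeq libraries were made from poly(A) RNA, per the labels' protocols. The authors deposited FPKM per gene in a table of 24187 rows with a symbol and an Entrez ID. CASAVA, Bowtie2, STAR, DESeq2 and the mouse build mm9 appear in the submitters' processing notes, without roles or versions. Neither the annotation nor the use of strand is given in the sources used here, so reads of overlapping and antisense genes may be mixed.

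The 5 genes and all lists were chosen with earlier results of these data known. The genes named were the 5, up to 4 genes of smallest p per list, any gene called, the 5 genes of nearest profile and 2 neighbours on each side; list genes beyond these (Wfdc18, Trf, Prlr and the markers named) were picked after their values were seen. Genes were compared with limma 3.58.1 in R 4.3.3 (empirical Bayes, trend in the variance) on log2(FPKM + 1), a scale that shrinks changes of low genes, over the 13392 genes averaging 1 FPKM or more. Calls had a Benjamini-Hochberg adjusted p under 0.05, and the test was checked on simulated data. It was run with 3 Socs2-Δs libraries against 4 wild-type libraries and against wild-type replicates 1 and 2. Log2 differences are Socs2-Δs minus wild type. As the labels do not call the replicates separate animals, p-values measure the spread between these libraries, which may be technical. Reads were recovered from the deposited values as whole multiples of 1 read within 0.02, up to a factor common to all libraries of a gene. Promoter windows and gene order came from RefSeq tables of GRCm38.p6, matched by symbol, and no coordinate was converted. Alternatives were another pseudocount, filter or scaling, a replicate block, wild-type replicates 3 and 4 as a covariate, and leaving out each library.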

Additional observations from a re-analysis of the deposited data

Results flagged for a closer look

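In a group of 4 libraries, a value was marked where its gap to the nearest other library was more than 0.829 of the range of the group. This was done for the wild-type FPKM and the wild-type shares of Csn2 of the 5 genes, 10 groups in all, and groups of 3 were not tested. For normally distributed values, chance marks about 1 group in 20, and how far FPKM keeps to this was not tested. Wild-type replicate 3 was marked for Glycam1, with 1955 FPKM beside 513.2 FPKM in the next highest wild-type library. The same library was marked for Spp1, with 55.4 FPKM beside 12.3 FPKM in the next highest. On the log2(FPKM + 1) scale, used for the differences, the rule would mark neither. There the values were 10.93 beside 9.01 for Glycam1 and 5.82 beside 3.73 for Spp1. On that scale the rule would instead mark wild-type replicate 4 for Lalba, at 1.93 beside 3.48 in the next lowest wild-type library. The Glycam1 and Spp1 values of wild-type replicate 3 lay below the lowest Socs2-Δs library. That replicate was also the highest of its group for Wap and for Csn2.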

How the results depend on the processing

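The directions of Wap, Lalba, Glycam1 and Spp1 were kept under all alternatives, and that of Cel under all but 1. Relative to the mean of the caseins, an alternative chosen after seeing the data, the log2 difference of Cel was -0.073 with 4 wild-type libraries and -0.71 with wild-type replicates 1 and 2. The median of the 5 genes was then 1.71 and 2.15, against 4.16 and 4.56, and Wap was at 3.10 and 3.18. Under quantile normalization the median with replicates 1 and 2 was 3.81. Setting FPKM relative to the sum without caseins and the 5 genes moved the median of all genes to 0.221 with 4 wild-type libraries, and the median of the 5 was then 4.43. The number of genes called moved more. With 4 wild-type libraries, 6 genes were called higher as given, 1 with a pseudocount of 0.1, 1 without the filter, 0 with a filter of 5 FPKM, 23 after quantile normalization, 0 with wild-type replicates 3 and 4 as a covariate, 169 without that pair, and 0 to 31 when single libraries were left out. Calls lower were 0 as given, 3 after quantile normalization, 91 without that pair and 0 to 1 when single libraries were left out. With wild-type replicates 1 and 2, calls higher were 169 as given, 0 without the filter and 0 to 36 when single libraries were left out, and calls lower were 91, 0 and 0 to 6. The cause of these changes was not tested. With the replicate number as a block, 0 genes were called higher with wild-type replicates 1 to 3, and 102 higher and 28 lower with replicates 1 and 2. The deviations of same-numbered libraries from their group means correlated at 0.350, -0.104 and 0.283 for replicates 1 to 3. Socs2-Δs replicates 1 and 3 correlated best with the wild-type library of the same number, and replicate 2 with wild-type replicate 4. Whether the numbers pair the libraries cannot be told from so few correlations. edgeR on recovered reads was not run. Depth limits the low values most: the fewest reads behind a value of the 5 genes were 42.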
